A study of Gallus gallus with 3 samples.

Results

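The genes described here encode the machinery that fuses secretory and synaptic vesicles with their target membrane: the synaptotagmins, the SNARE proteins and the proteins that prime, clamp and recycle them. They were chosen by a rule on symbols that uses no measured value, as all rows of the expression table named SYT, STX, STXBP, VAMP, CPLX, SNAP or SYNGR with a number, UNC13, SV2 or RIMS with any ending, or SYP, NSF, NAPA, NAPB, NAPG, SYN1, SYN2, SYN3, CADPS or CADPS2. This gave 67 of the 15916 genes in the table, each symbol on 1 row. SYP, NAPA and SYN1 were not matched by symbol and are not analysed here.

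In vesicle release, a SNARE on the vesicle (a VAMP) zips together with syntaxin and SNAP-25 on the target membrane, and the bundle pulls the membranes into contact. UNC13 proteins open syntaxin, complexins bind the assembled bundle, synaptotagmins carry the calcium signal, and NSF with its SNAP adaptors takes the used bundle apart. Neurons use a set of their own (SNAP25, STX1A, VAMP1 and VAMP2, CPLX1 and CPLX2, UNC13A), while related proteins such as SNAP23, STX2 and VAMP3 serve constitutive secretion and endosomal traffic in most cell types. In the early spinal neural tube most cells are dividing progenitors, and motor neurons are among the earliest neurons to leave the cycle.

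Polyadenylated RNA was sequenced from the spinal neural tube, the epithelium that forms the spinal cord, of wild-type White Leghorn chicken embryos. There were 2 libraries from Hamburger-Hamilton stage HH14 and 1 from the later stage HH19, each a pool of about 25 embryos, dissected at brachial level into the thoracic region, with adjoining tissues removed by hand and trypsin. The labels give an incubation of 48 h for all 3 libraries. The HH19 label carries the dissection text written for HH14, incubation time included, so it gives no separate age for HH19. Values are TPM, which corrects for transcript length and scales each library to a common total, with 1 column a stage, so the HH14 value stands for both libraries without a replicate error and no test was run on the 2 columns. As a rule of size, a gene counts below as higher or lower where log2(TPM + 1) at HH19 was at least 1 above or below HH14, which is 2-fold on that scale, and its mean over the 3 libraries was at least 1 TPM. All log2 differences are HH19 minus HH14 on that scale, where the added 1 shrinks the differences of low genes. The absolute depth is unknown, and no gene was at 0, since the steps between low values show that each gene carries 1 added read in each library.

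The label of the tissue was checked against marker genes. Neural progenitor markers were high at both stages (SOX2 at 178 and 185 TPM), and their 7 matched genes summed to 2611 TPM at HH14 against 3641 TPM at HH19. Of 7 matched neuron markers 6 were higher at HH19, and the sum of the 7 was 439 TPM against 1196 TPM, a ratio of 2.72. In bulk tissue fewer cells of a type and less RNA per cell cannot be told apart. Markers of other tissues also differed: 6 matched neural crest genes summed to 107 and 33.7 TPM, 4 endoderm and lateral plate genes to 15.2 and 3.36 TPM, 7 paraxial mesoderm and muscle genes to 57.2 and 23.4 TPM, 5 surface ectoderm genes to 140 and 102 TPM, and 5 sensory ganglion genes to 12.9 and 38.7 TPM. The endoderm and lateral plate sum differed between the HH14 libraries themselves, at 25.3 TPM in one, denoted A, against 5.08 TPM in the other, denoted B, as recovered from whole-read steps. TNNC1 (48.9 and 17.7 TPM) made up most of the mesoderm and muscle sum, whose 5 tested genes had a median log2 difference of -0.07, and PRDM12 (7.34 and 32.6 TPM) most of the ganglion sum. Endothelial genes summed to 15.3 and 15.9 TPM (ratio 1.04), blood genes to 21.5 and 30.2 TPM (1.41) and notochord genes to 95.6 and 126 TPM (1.32). Of the 3 tested endothelial genes ESAM was higher (0.945 and 3.52 TPM) and 2 were within 2-fold. SHH (88.3 and 117 TPM) made up most of the notochord sum. The other notochord genes were low, T at 5.72 and 5.70 TPM and CHRD at 1.57 and 2.94 TPM. Of the 6 neural crest genes 5 were lower at HH19, while ETS1 was higher (5.91 and 12.9 TPM). TFAP2A (8.81 and 2.48 TPM) was counted in both the neural crest and the surface ectoderm sum. The part of these lists in the differences below was not tested.

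Of the 67 genes, 55 passed the filter on mean TPM. At HH19, 6 of the 55 were at least 2-fold higher (10.9%), beside 3.93% of all 11097 tested genes, and 0 were at least 2-fold lower, beside 1.38%. For 55 genes a count of 0 lower is near that share. Among the 6 were SYT4, CPLX2, SNAP91, SNAP25 and NAPB, genes best known from release or recycling of vesicles in neurons, with HH14 values between 0.898 and 5.43 TPM. SYT4, under 1 TPM at HH14, passed the filter only through its HH19 value. With no filter 7 of all 67 genes met the 2-fold limit upward, UNC13A being the addition, beside 454 of 15916 genes. Again 0 were lower, beside 156 of the 15916. UNC13A was under that limit after median-ratio scaling (0.986) and quantile normalization (0.917), and against HH14 library B alone (0.79). The median log2 difference of the 55 was 0.20, beside 0.052 over all tested genes, and 42 of the 55 (76.4%) lay above their HH14 value, beside 55.6% of all tested genes. In plain TPM, 12 more of the 55 (21.8%) were between 1.5-fold and 2-fold higher, beside 9.42% of all tested genes, and 1 (1.82%), UNC13B, was at least 1.5-fold lower, beside 6.16%.

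In the whole table, genes of low level met the 2-fold rule upward more often than abundant ones, 272 of 3571 with a mean under 10 TPM (7.62%) and 164 of 7526 at 10 TPM or more (2.18%). Of the 30 tested vesicle release genes under 10 TPM, 4 were higher, with a median log2 difference of 0.46 beside 0.16 for all tested genes at that level. Of the 25 at 10 TPM or more, 2 were higher, CPLX2 among them, with a median of 0.11 beside 0.019. All 9 genes with 50 TPM or more at either stage, SYT11, VAMP3, VAMP4, STX2, STX8, STX12, STX16, STX18 and SNAP23, lay within 0.40 of their HH14 value on the log2 scale. The 67 genes together made up 1103 TPM at HH14 against 1240 TPM at HH19. When the columns were quantile normalized, 302 of all tested genes were higher and 217 lower, against 436 and 153 as deposited, and of the vesicle release genes 5 were higher and 0 lower, without NAPB.

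**Figure D1:**
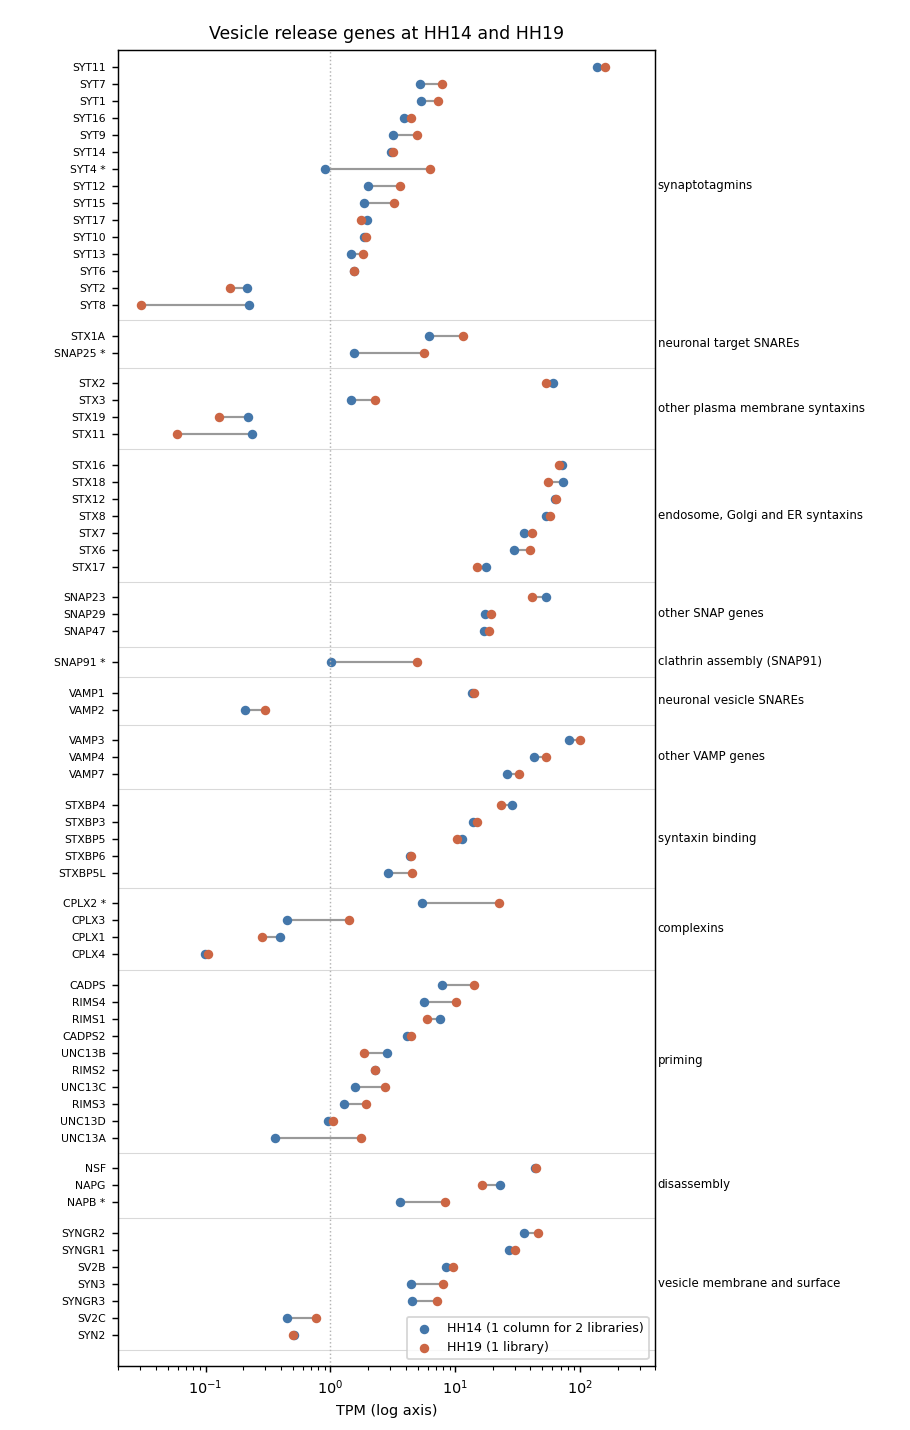
TPM at HH14 (blue, 1 column for 2 libraries) and HH19 (orange, 1 library) for 66 of the 67 vesicle release genes, ordered by role and mean level on a log axis; an asterisk marks 5 of the genes at least 2-fold higher at HH19. Abundant genes of general traffic have points that lie close together or overlap, and long lines belong to low genes, such as SYT4 (0.898 and 6.32 TPM).

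**Figure D2:**
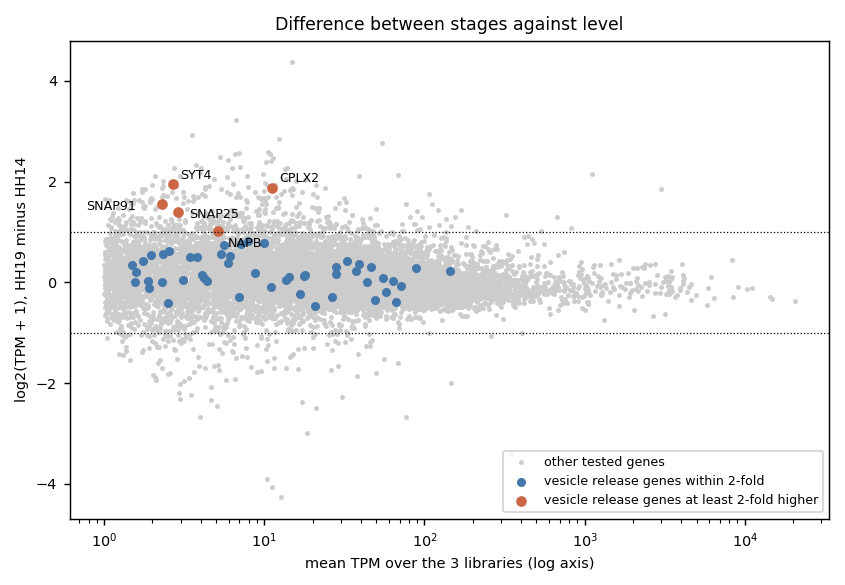
Difference in log2(TPM + 1), HH19 minus HH14, against mean TPM over the 3 libraries for the 11097 tested genes (grey), with vesicle release genes in blue (within 2-fold) and orange (5 of those at least 2-fold higher); dotted lines mark a difference of 1 either way. The 5 genes in orange lie above the upper line and no vesicle release gene lies below the lower one.

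The synaptotagmins, vesicle proteins with paired C2 domains of which some bind calcium, were represented by 15 genes, and 13 were tested. SYT4, whose product sits on dense-core vesicles, was at 0.898 TPM at HH14 against 6.32 TPM at HH19, a log2 difference of 1.95 and a 7.03-fold ratio in TPM. It was the only one of the 13 to meet the 2-fold rule (7.69%, beside 3.93% of all tested genes). SYT4 had the largest log2 difference of the 67 genes, and moved from rank 11118 to rank 8585 of all genes by level. SYT11, a close relative of SYT4 that does not bind calcium and acts in membrane traffic, was by far the most abundant synaptotagmin, at 136 TPM against 159 TPM (0.23). It made up 80.6% of the summed TPM of the family at HH14 and 76.8% at HH19, while SYT4 went from 0.53% to 3.05%.

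The calcium sensors SYT1, SYT7 and SYT9 lay above their HH14 values but under the 2-fold rule. SYT1, the fast sensor of most central synapses, was at 5.31 TPM at HH14 against 7.26 TPM at HH19 (log2 difference 0.39). SYT7, a sensor of slow release, was at 5.20 and 7.90 TPM (0.52). SYT9, another fast sensor, was at 3.19 and 4.98 TPM (0.51), and its difference was 0.27 against HH14 library A (3.96 TPM) and 0.80 against library B (2.42 TPM). SYT2, the fast sensor of hindbrain and spinal synapses in mature rodents, was too low to be tested, at 0.215 and 0.156 TPM. Of the remaining synaptotagmins, SYT12 was at 1.99 and 3.61 TPM (0.63) and SYT15 at 1.88 and 3.25 TPM (0.56). SYT6, SYT10, SYT13, SYT14, SYT16 and SYT17 lay within 0.20 of their HH14 value on the log2 scale, from 1.47 to 3.90 TPM at HH14.

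Among the SNAREs of the target membrane, SNAP25 was higher at HH19 and the other genes were within 2-fold or too low to be tested. SNAP25, the neuronal target SNARE anchored by palmitoylation, was at 1.53 TPM at HH14 against 5.66 TPM at HH19 (log2 difference 1.39). SNAP23, its counterpart outside neurons, was at 53.3 and 41.4 TPM (-0.36), so that SNAP23 exceeded SNAP25 34.7-fold at HH14 but 7.32-fold at HH19. STX1A, the syntaxin of synaptic release, was at 6.15 and 11.6 TPM (0.82), under the 2-fold rule. STX2, a syntaxin of the epithelial plasma membrane, was at 60.4 and 53.0 TPM (-0.19), and its excess over STX1A went from 9.83-fold to 4.57-fold. In both pairs the widely used gene stayed the more abundant one. SNAP29 (17.5 and 19.3 TPM) and SNAP47 (17.0 and 18.7 TPM), which act in intracellular and autophagic fusion, differed by 0.14 and 0.12 on the log2 scale.

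The syntaxins of the endosome, Golgi and endoplasmic reticulum had the highest summed level of the SNARE groups. Their 7 genes summed to 344 TPM at HH14 against 340 TPM at HH19, with a median log2 difference of 0.02 and 0 higher or lower. For 7 genes that count is near the shares of all tested genes, 3.93% higher and 1.38% lower. STX16 of the trans-Golgi network was at 72.2 and 68.5 TPM, STX12 of recycling endosomes at 63.2 and 64.0 TPM, and the endosomal STX8 and STX7 at 53.6 and 57.0 TPM and at 35.4 and 41.6 TPM. The differences ran from -0.40 for STX18 of the endoplasmic reticulum (72.5 and 54.9 TPM) to 0.42 for STX6 of the trans-Golgi network (29.4 and 39.7 TPM). STX17, the syntaxin of autophagosomes, was at 17.6 and 14.8 TPM (-0.24). Of the other plasma membrane syntaxins, STX3 was at 1.47 and 2.29 TPM (0.41), and STX11 (0.234 and 0.0588 TPM) and STX19 (0.220 and 0.129 TPM) were too low to be tested.

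On the vesicle side, none of the 4 tested VAMP genes met the 2-fold rule, which is near the shares of all tested genes (3.93% higher, 1.38% lower). VAMP1, a neuronal vesicle SNARE of the spinal cord, was at 13.6 TPM at HH14 against 14.02 TPM at HH19 (log2 difference 0.04). VAMP2, the main vesicle SNARE of forebrain synapses in rodents, was at 0.207 and 0.299 TPM and was not tested. VAMP3 or cellubrevin, the counterpart in recycling endosomes, was at 82.0 and 101 TPM (0.29), VAMP4 of the trans-Golgi network at 42.9 and 53.4 TPM (0.31), and VAMP7 of late endosomes at 25.8 and 32.3 TPM (0.31). VAMP3 thus exceeded VAMP1 6.03-fold at HH14 and 7.18-fold at HH19, and it made up 49.8% and 50.1% of the summed VAMP level. VAMP1, VAMP2 and VAMP3 have similar coding sequences, and no source used here says how reads shared by such genes were counted.

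Syntaxin-binding proteins hold syntaxins or compete with other SNAREs for them, and STXBP3, STXBP4, STXBP5, STXBP5L and STXBP6 were within 2-fold. STXBP3 (Munc18c, used outside neurons) was at 13.8 TPM at HH14 against 15.0 TPM at HH19 (log2 difference 0.11), and STXBP4 at 28.4 and 23.1 TPM (-0.28). The tomosyn gene STXBP5 was at 11.3 and 10.4 TPM (-0.10), while the second tomosyn gene, STXBP5L, was at 2.88 and 4.49 TPM (0.50). STXBP6 (amisyn) was at 4.33 and 4.46 TPM (0.03).

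Complexins bind the assembled SNARE bundle and both clamp and promote fusion. CPLX2 was at 5.43 TPM at HH14 against 22.6 TPM at HH19 (log2 difference 1.88, a 4.16-fold ratio in TPM), the second largest log2 difference of the 55 tested genes. The other complexins were too low to be tested. CPLX1 was at 0.393 and 0.283 TPM, CPLX3, a complexin of retinal ribbon synapses in mammals, at 0.448 and 1.40 TPM, and CPLX4, another retinal complexin, at 0.0990 and 0.106 TPM. CPLX2 made up 85.3% of the family at HH14 and 92.7% at HH19.

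Among the priming genes 8 of 10 were tested and 0 were higher or lower. For 8 genes this is near the shares of all tested genes, 3.93% higher and 1.38% lower. UNC13A, the main neuronal priming factor, was at 0.363 TPM at HH14 against 1.77 TPM at HH19 and fell short of the filter with a mean of 0.831 TPM; its log2 difference was 1.022. UNC13B, the more widely expressed form, was at 2.82 and 1.86 TPM (-0.42), UNC13C at 1.58 and 2.75 TPM (0.54), and UNC13D, a granule release factor of immune cells in mammals, at 0.957 and 1.06 TPM, also under the filter. UNC13B exceeded UNC13A 7.78-fold at HH14 but 1.05-fold at HH19; the HH14 ratio differed by library, at 34.8-fold in library A and 2.17-fold in B, with UNC13B recovered at a looser limit on chance solutions. CADPS, which primes dense-core vesicles, was at 7.88 and 14.2 TPM (0.78), whereas its relative CADPS2 was at 4.12 and 4.43 TPM (0.09). The RIM genes of the active zone lay on both sides of their HH14 values, with RIMS4 at 5.62 and 10.2 TPM (0.75), RIMS3 at 1.29 and 1.92 TPM (0.35), RIMS2 at 2.30 and 2.29 TPM, and RIMS1 at 7.51 and 5.97 TPM (-0.29). RIMS1 led the family at HH14 with 44.9% and RIMS4 at HH19 with 49.96%.

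NSF, the ATPase that takes SNARE bundles apart in all cells, was at 43.9 TPM at HH14 against 44.4 TPM at HH19 (log2 difference 0.02). Its adaptor NAPB (beta-SNAP), known from brain, was at 3.58 and 8.32 TPM, just over the 2-fold rule with a log2 difference of 1.025, and was under it after median-ratio scaling and quantile normalization. NAPG (gamma-SNAP) was at 23.02 and 16.4 TPM (-0.46), the largest difference toward HH14 among the 55 tested genes. NAPG exceeded NAPB 6.43-fold at HH14 and 1.98-fold at HH19. SNAP91 shares only its name with the SNAREs: it encodes the neuronal clathrin assembly protein AP180, and was at 1.018 and 4.90 TPM (1.55).

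The 5 tested genes for proteins of the vesicle membrane and surface were within 2-fold, near the shares of all tested genes (3.93% higher, 1.38% lower). All 5 lay above their HH14 value, beside 55.6% of all tested genes, with a median log2 difference of 0.37. SYNGR2, the synaptogyrin of most cell types, was at 35.5 TPM at HH14 against 46.0 TPM at HH19, SYNGR1 at 26.8 and 30.1 TPM, and the neuronal SYNGR3 at 4.53 and 7.13 TPM (0.56). SYN3, a synapsin of developing neurons, was at 4.39 and 8.05 TPM (0.75), while SYN2 was at 0.510 and 0.498 TPM. SV2B, a vesicle transporter-like glycoprotein, was at 8.38 and 9.60 TPM, and SV2C at 0.453 and 0.769 TPM. SYN2 and SV2C did not pass the filter.

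**Figure D3:**
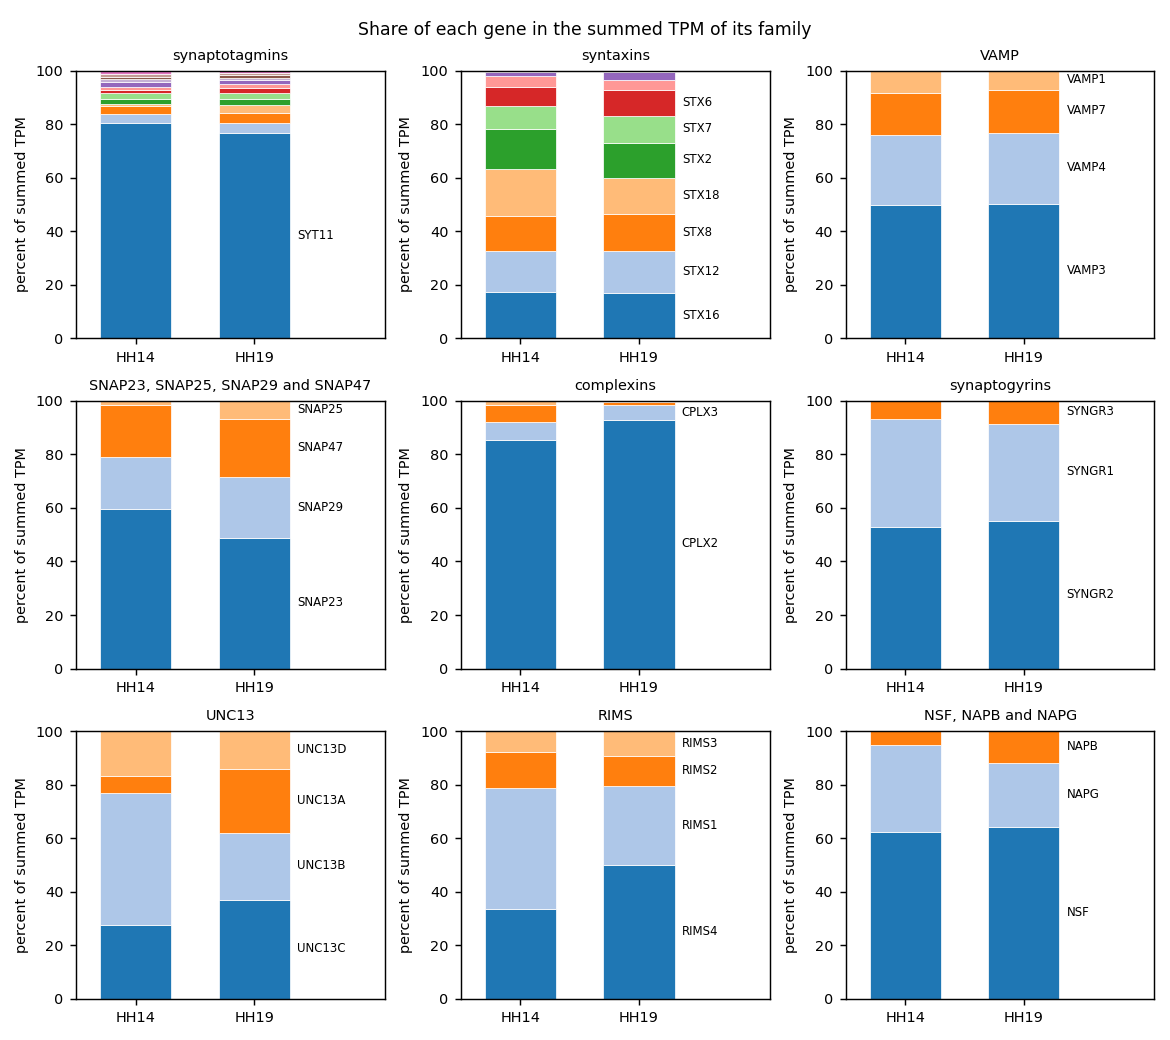
Stacked bars of each gene's percentage of the summed TPM of its family or group at HH14 and HH19, with genes of at least 5% at HH19 named. SNAP25 (1.72% and 6.66%), RIMS4 (33.6% and 49.96%) and NAPB (5.08% and 12.03%) took larger shares at HH19, while VAMP3 had 49.8% and 50.1% of its family; the UNC13 bar at HH14 joins libraries that differed, with UNC13A at 0.125 and 0.601 TPM.

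For low genes the values of single HH14 libraries could be recovered, because such values lie on whole-read steps. The HH14 libraries are denoted A and B, and B was 1.28 times as deep; which label each belongs to is unknown. This worked for 23 of the 67 genes, 11 of them tested. Reads below are the smallest whole numbers that account for the values, TPM include the 1 added read, and floors of 3 reads cover counting error only. SYT4 was at 0.815 TPM (36 reads) in A, 0.980 TPM (56 reads) in B and 6.32 TPM (301 reads) at HH19. HH19 was thus 7.75-fold above A and 6.44-fold above B, while A and B differed 1.202-fold. For CPLX2, SNAP91 and NAPB no HH14 library value was recovered, so their difference has no replicate check.

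At a looser limit on chance solutions, 0.01 in place of 0.003, 5 more genes were recovered. SNAP25 was at 1.30 TPM (78 reads) in A, 1.77 TPM (137 reads) in B and 5.66 TPM (362 reads) at HH19, and RIMS4 at 6.28, 4.95 and 10.2 TPM, so both lay above each HH14 library. SYT16 was at 5.14, 2.65 and 4.39 TPM and STXBP6 at 5.41, 3.26 and 4.46 TPM, between the HH14 libraries. UNC13B, at 4.34, 1.30 and 1.86 TPM, also lay between them, so its lower HH19 value held against A but not against B.

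The HH14 libraries differed by a median of 1.38-fold in the 11 recovered tested genes, and by a median of 1.49-fold in all 1367 recovered tested genes. None of the 11 was 2-fold apart between A and B in TPM, while 356 of the 1367 (26.04%) were. On the log2(TPM + 1) scale of the size rule 125 of the 1367 (9.14%) were. None among 11 genes is near that share. Of the 11, 7 lay above both HH14 libraries at HH19 (SYT4, SYT9, SYT13, SYT15, STX3, RIMS3 and CADPS2), 4 lay between them (SYT6, SYT10, SYT14 and SYT17) and 0 lay below both. Of all 1367, 52.2% lay above both. SYT17 was at 1.42 TPM in A, 2.54 TPM in B and 1.77 TPM at HH19, and SYT10 at 2.42, 1.28 and 1.92 TPM, so that their direction depended on the library.

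A model with the 2 HH14 libraries against HH19 could be fitted to these recovered genes. limma with an intensity trend, fitted to all 1367 genes on log2(TPM + 1) with Benjamini-Hochberg adjustment, called 0 genes higher and 0 lower at an adjusted p below 0.05 (0.0% of those tested), with the lone HH19 library assumed to vary like the HH14 libraries. Of the 1367 genes, 132 (9.66%) had an unadjusted p below 0.05. SYT4 was the 1 vesicle release gene among them (limma log2 difference 1.95, SE 0.36, unadjusted p = 0.00188, adjusted p = 0.448).

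UNC13A differed more between the HH14 libraries than any other of the 23 genes with at least 10 reads in each library. It was at 0.125 TPM (11 reads) in A, 0.601 TPM (73 reads) in B and 1.77 TPM (178 reads) at HH19. HH19 was 14.2-fold above A but 2.94-fold above B, and A and B were 4.81-fold apart. CPLX3 had 3, 4 and 12 reads in A, B and HH19, too few for a statement on its difference. SYT8, another synaptotagmin, had 12 reads (0.418 TPM) in A and 0 reads in both B and HH19, where 0 reads allow up to 0.0752 and 0.0914 TPM. STX11 and STX19 had 5 and 8 reads in A, 1 and 4 in B, and 0 and 3 at HH19. VAMP2 had 3 to 5 reads a library, and CPLX4 had 0 reads in all 3, which allows up to 0.334 TPM in A and 0.317 TPM at HH19. A stage difference in STX11, STX19, VAMP2 and CPLX4 was not detectable at this depth.

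**Figure D4:**
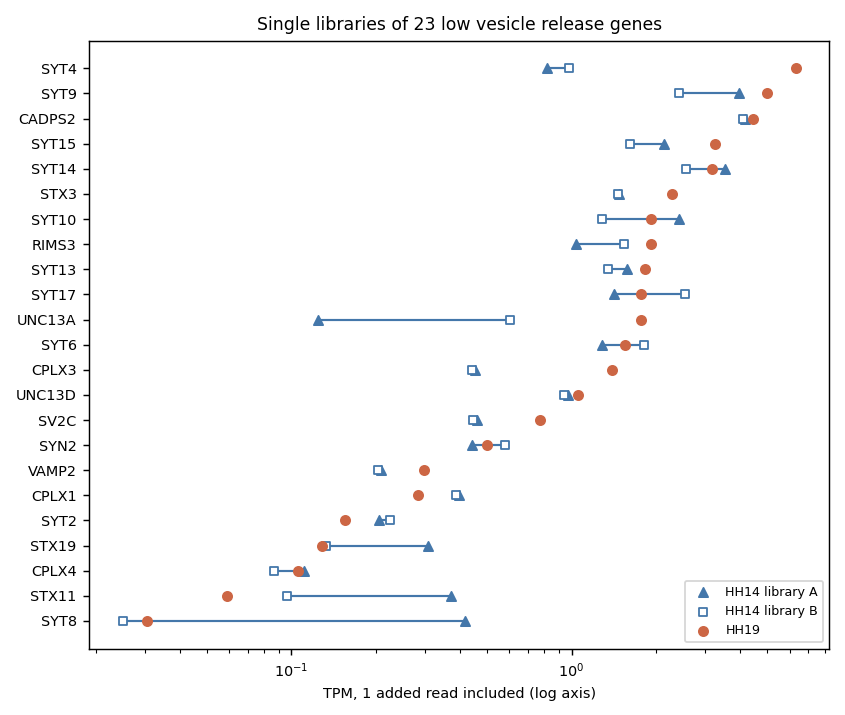
TPM on a log axis in HH14 library A (triangles), HH14 library B (open squares) and HH19 (orange circles) for the 23 vesicle release genes recovered at low read numbers, 1 added read included. SYT4 stands clear of both HH14 libraries, SYT10 and SYT17 lie between them, and the HH14 libraries are far apart for UNC13A (0.125 and 0.601 TPM) and SYT8.

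Other genes of the release cycle were described beside these. Of 36 listed active zone and tethering genes 26 were matched and 21 tested, with 2 higher (9.52%, beside 3.93% of all tested genes), 0 lower (beside 1.38%) and a median log2 difference of 0.28. SNCB (beta-synuclein) was at 4.29 TPM at HH14 against 12.6 TPM at HH19 (log2 difference 1.37), and BSN (bassoon, an active zone scaffold) at 1.73 and 4.80 TPM (1.09). SNCB was recovered at 2.52 TPM in A but 6.06 TPM in B, from which HH19 differed by 0.95, under the 2-fold rule. The most abundant genes of the list, CASK (57.5 and 67.2 TPM) and LIN7B (55.2 and 55.6 TPM), both scaffold proteins, were within 2-fold.

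Of the 16 matched transmitter loading genes 9 were tested, with 1 higher (11.1%, beside the same 3.93%), 0 lower and a median of 0.32. The higher one was SLC32A1, the vesicular transporter for GABA and glycine, at 0.502 TPM at HH14 against 3.41 TPM at HH19 (log2 difference 1.55). SLC32A1, under 1 TPM at HH14, passed the filter only through its HH19 value. Its HH14 libraries stood apart, with 0.0586 TPM (2 reads) in A and 0.946 TPM (61 reads) in B. Of the 9 tested genes 7 lay above their HH14 value and 2 below. GAD1 had the lowest difference, at 1.61 TPM at HH14 against 0.908 TPM at HH19 (-0.45). CHAT, which makes acetylcholine in motor neurons and was chosen after its values were seen, was at 0.291 TPM in A, 1.29 TPM in B and 2.0 TPM at HH19. SLC32A1, CHAT, SNCB and UNC13A were thus higher in B than in A. Of the 11 recovered tested vesicle release genes 4 were higher in B (SYT4, SYT6, SYT17 and RIMS3). The others, SYT9, SYT10, SYT14 and SYT15 among them, were higher in A. The median log2 difference, B minus A, was -0.018 for the 11 genes and 0.038 over all 1367 recovered tested genes. The proton pump genes ATP6V0C (303 and 358 TPM) and ATP6V1B2 (75.2 and 91.8 TPM), which acidify vesicles in all cells, were within 2-fold.

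In the lists of general membrane fusion and of vesicle recycling no tested gene met the 2-fold rule. Of all tested genes 3.93% were higher and 1.38% lower, and a count of 0 in lists of 22 and 28 genes is near those shares. The 22 tested genes for other SNAREs, SM proteins and exocyst subunits had a median of 0.03, with EXOC7 at 97.7 and 91.9 TPM and SEC22B at 87.8 and 78.8 TPM. The 28 tested recycling genes had a median of 0.13, with the clathrin adaptor subunit AP2M1 at 330 and 357 TPM and the clathrin light chain CLTA at 255 and 217 TPM. The synaptophysin relative SYNPR, chosen after its values were seen, came nearest, at 12.9 and 25.6 TPM (0.93). REST, a repressor of neuronal genes in non-neuronal cells, was at 17.4 and 15.5 TPM (-0.16), and its corepressor RCOR1 at 49.5 and 49.6 TPM.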

How the data were processed

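The authors deposited TPM per Ensembl gene, with a column for each stage. The submitters' processing notes name the build galGal4 and the tools FastQC, SAMtools, TopHat2 and DESeq2; no source used here gives their roles or versions, the counting tool, strand handling or how the HH14 libraries were merged. The columns summed to 957154 and 946462 TPM and were compared as they stand, with a pseudocount of 1. The members, lists and tests were chosen with earlier results of these data known. All vesicle release genes could be named, but 1 is not reported here and stays in all counts and medians; in each list of other genes the rule named the 3 most different beyond 2-fold and the 2 most abundant within it. Where a symbol had several rows, the row of highest mean was used.

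Single HH14 libraries were recovered from the ratio of the columns in 1426 genes without reads (1.066) and the share of library A in the HH14 value of 1 read (56.2%), by a search over whole reads in the 3 libraries up to 400 at HH19. The limits were 0.003 expected chance solutions, 0.2 TPM for the value of 1 read and a mean of 20 TPM, under which 5129 genes were recovered. With a perturbed ratio, in 3 runs, 9 were found on average and no vesicle release gene. These runs used the limit of 0.003 and do not cover the genes added at 0.01. The steps were also run on data simulated under the same read model, which cannot show that the model holds for the deposited columns. The labels do not say that the pools came from separate egg batches, so the limma p-values reflect only how far these libraries spread. Promoter and protein sequences were not used here. The software was Python 3.11.15 with numpy 2.4.6, pandas 2.3.3 and matplotlib 3.10.9, and R 4.3.3 with limma 3.58.1.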

Additional observations from a re-analysis of the deposited data

How the results depend on the processing

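The number of vesicle release genes at least 2-fold higher at HH19 was 6 as deposited and 6 at a pseudocount of 0.1 (436 and 651 of all 11097 tested genes), 7 with no filter (UNC13A added), and 5 after median-ratio scaling or quantile normalization (NAPB lost; 381 and 302 of all tested genes). It was 2 at a pseudocount of 5, with CPLX2 among them and SYT4, SNAP25, SNAP91 and NAPB lost (149 of all tested genes), and 3 at a mean of at least 5 TPM, with CPLX2 and NAPB among them, because that filter removes SYT4, SNAP25 and SNAP91 (261 of the 8867 genes it leaves). The number lower was 0 under each of these. Of all 11097 tested genes 153 were lower as deposited, 279 at a pseudocount of 0.1 and 46 at a pseudocount of 5. Median-ratio scaling gave 172 and quantile normalization 217. With no filter 156 of 15916 genes were lower, and at a mean of at least 5 TPM 85 of 8867. For so few vesicle release genes a count of 0 is near those shares. The median log2 difference of the tested genes ranged over these from 0.056 (quantile normalization, with -0.033 over all tested genes) to 0.23 (pseudocount of 0.1). Leaving out either HH14 library gave 1 of the 11 recovered tested genes higher, SYT4, each time. The median was 0.20 against library A and 0.26 against library B. SYT4 passed the filter only through its HH19 value, and the same count over all 1367 recovered tested genes is not given here. A chance limit of 0.001 left 17 of the 23 recovered genes and a limit of 0.01 gave 28, the 23 included. No paired analysis was possible because no label links an HH14 pool to the HH19 pool. Read depth limits the genes under 1 TPM, and CPLX2, SNAP91 and NAPB rest on a single HH14 value.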
